A study of Mus musculus with 6 samples.

Results

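Cytosolic ribosomal protein genes were followed in the cerebellum of 6 mice, as a group of 74 genes out of 46983 in the deposited count tables. Members were the symbols Rpl or Rps followed by a number with an optional closing a, l or x, together with Rplp0 to Rplp2 and Rpsa, that the authors' deposited comparison lists and that had at least 10 reads in at least 3 of the 6 libraries. The pattern matched 82 symbols, and 8 had too few reads. Of the 74 members, 44 encode proteins of the large subunit (Rpl) and 30 belong to the small subunit (Rps). All but 1 are annotated as protein-coding. The exception is Rps4l, annotated as a transcribed processed pseudogene. Rack1, Fau and Rps3a1, which also encode ribosomal proteins, lie outside the pattern.

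All mice were C57BL/6J at postnatal day 60, and all carried Tie2-Cre, a recombinase driven in endothelial and blood-lineage cells. The 3 mice labelled WT had 1 floxed and 1 normal Slc7a5 allele (Slc7a5 fl/+), so the WT group carried Cre and a floxed allele too. The 3 mice labelled Slc7a5-KO, written KO from here on, had both alleles floxed (Slc7a5 fl/fl). The Slc7a5 protein, LAT1, carries large neutral amino acids across cell membranes, and the comparison asks what its endothelial loss does to the cerebellum. Total RNA was sequenced with a stranded kit, and each library came from its own mouse. Depth was 34.2, 29.6 and 27.7 M gene reads (M, mega) in WT 1 to 3, and 31.1, 27.3 and 13.4 M in KO 1 to 3, so KO 3 was the shallowest library.

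The targeted gene was examined first. Slc7a5 stood at 72.0, 66.3 and 43.2 CPM (counts per M gene reads, scaled between libraries) in WT and at 164, 59.4 and 118 CPM in KO. The libraries labelled Slc7a5-KO did not have less of it (log2 difference 0.91 ± 0.42, SE, adjusted p = 0.84, edgeR), and KO is used below as the label, not as a measured loss. The sources used here do not say which part of the gene is deleted. In bulk RNA, fewer cells of a type and less RNA per cell cannot be told apart. All 10 Purkinje and all 10 granule neuron markers had reads in every library.

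A ribosome joins a small subunit, which reads the messenger RNA, to a large subunit, which links amino acids. Each cytosolic subunit is built from ribosomal RNA and a set of proteins needed in matched amounts. Their messenger RNAs start with a run of pyrimidines, the 5' terminal oligopyrimidine or TOP motif, through which translation follows the amino acid sensor mTORC1, a kinase complex. Mammalian genomes also hold many processed copies of these genes, inserted back from messenger RNA. The copies matter for counting. The tables of all 6 libraries give 0 multimapping reads, so a read that fits a gene and its copy equally is in no count.

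The coding starts below show sequence shared with annotated transcripts. They do not measure the reads lost, as the read length is not given. Each line gives the first 60 bases of the coding sequence, 5' to 3', with capitals where a base lies in a stretch of 50 bases (a 50-mer) also found in a transcript of another locus in GENCODE M21. The first set holds members with no such stretch in these bases.
Rpl8: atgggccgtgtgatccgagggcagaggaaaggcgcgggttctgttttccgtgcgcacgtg
Rpl4: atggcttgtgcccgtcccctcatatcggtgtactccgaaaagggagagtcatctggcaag
Rplp1: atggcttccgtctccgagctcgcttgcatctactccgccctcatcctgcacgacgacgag
Rps26: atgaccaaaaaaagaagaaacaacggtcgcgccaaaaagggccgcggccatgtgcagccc
The second set holds members whose first 60 bases are shared throughout.
Rpl7: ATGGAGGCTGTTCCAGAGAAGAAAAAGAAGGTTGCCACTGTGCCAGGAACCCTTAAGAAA
Rps18: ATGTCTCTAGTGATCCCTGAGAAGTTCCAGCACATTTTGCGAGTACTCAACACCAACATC
Rpl41: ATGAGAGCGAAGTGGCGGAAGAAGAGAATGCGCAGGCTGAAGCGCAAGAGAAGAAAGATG
In these bases 4 other loci shared a 50-mer with Rpl7, 6 with Rps18 and 4 with Rpl41. Over whole coding sequences, members of the first set were shared too. Of their coding 50-mers, 8.73% were shared for Rpl8, 20.3% for Rpl4, 60.4% for Rplp1 and 73.0% for Rps26. In the second set the share was 77.5% for Rpl7, 87.7% for Rps18 and 100% for Rpl41. The genes lie on GRCm38 at chr15:76904078-76906314 (Rpl8), chr9:64173375-64178666 (Rpl4), chr9:61913284-61914542 (Rplp1), chr10:128624534-128626747 (Rps26), chr1:16101295-16104662 (Rpl7), chr17:33951999-33956001 (Rps18) and chr10:128548114-128549305 (Rpl41). Over whole transcripts, 73 of 74 members shared at least one 50-mer with another locus. The median member shared with 10 other loci, and Rpl7a with 123, the most.

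A pair of paralogs shows a different case. Rps27 and Rps27l encode 2 versions of the same small subunit protein, and Rps27l is known as a target of p53. Their coding sequences follow, with capitals at the bases where they differ.
Rps27: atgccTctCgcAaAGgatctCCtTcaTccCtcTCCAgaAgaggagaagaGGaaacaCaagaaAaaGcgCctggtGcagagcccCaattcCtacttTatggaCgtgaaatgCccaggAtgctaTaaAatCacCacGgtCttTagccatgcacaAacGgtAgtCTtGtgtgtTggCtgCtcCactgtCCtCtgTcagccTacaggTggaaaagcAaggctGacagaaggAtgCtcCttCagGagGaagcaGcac
Rps27l: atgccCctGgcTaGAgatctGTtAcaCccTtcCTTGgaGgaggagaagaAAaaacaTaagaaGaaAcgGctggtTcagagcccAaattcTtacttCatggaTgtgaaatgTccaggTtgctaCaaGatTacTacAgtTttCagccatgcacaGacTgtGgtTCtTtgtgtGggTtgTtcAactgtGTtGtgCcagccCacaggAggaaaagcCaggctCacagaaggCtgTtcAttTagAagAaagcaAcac
The 2 sequences of 252 bases differed at 60 positions (76.2% identity), and their longest identical run was 11 bases. Of the coding 50-mers of Rps27l, 48.3% were shared with other loci, against 100% for Rps27. Rps27l is at chr9:66946086-66949516 and Rps27 at chr3:90212522-90213651.

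Letters of the TOP kind were looked for at member start sites. In RefSeq windows (GRCm38.p6), 60 bases around the annotated start are shown for a large, a small and another large subunit gene, with the letters CTTTCC in capitals.
Rpl28: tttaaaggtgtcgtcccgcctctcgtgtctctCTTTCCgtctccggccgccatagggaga
Rps10: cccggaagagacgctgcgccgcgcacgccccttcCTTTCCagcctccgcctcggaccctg
Rpl15: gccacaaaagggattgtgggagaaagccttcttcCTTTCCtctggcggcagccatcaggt
The windows are chr7:4792935-4792994 (plus strand), chr17:27635215-27635274 (minus strand) and chr14:18270957-18271016 (minus strand). RefSeq windows were matched for 53 of the 74 members, with 64 windows in all. CTTTCC on the coding strand within 50 bases of the start was found in 20 of 64 member windows (31.2%) against 4.69% of all 32851 windows. The longer CTCTTTCC, which contains it, was found in 14.1% against 0.448%. CCGGAAGT, the core bound by ETS factors, was found on either strand of the whole promoter windows in 18.8% against 3.89%. TATAAA, within 50 bases on the coding strand, was found in 6.25% against 3.40%. These matches are descriptions of letters and name no bound site.

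Levels varied widely between members. Per length of exon, member levels ran from 0.241 RPKM (reads per kilobase and per M reads) for Rpsa to 865 RPKM for Rplp1, with a median of 4.84. The median was 4.45 RPKM over the 44 large subunit genes and 7.24 over the 30 small subunit genes. The top 3 together held 35.1% of all member CPM. The top 10 held 69.0% and the top 20 held 85.8%. Ribosomal protein reads were a small share of every library, at 0.357%, 0.435% and 0.380% of gene reads in WT and 0.396%, 0.417% and 0.352% in KO. The widest 95% Wilson interval was 0.348% to 0.355% (KO 3), and these intervals cover counting error only.

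Members whose coding sequence is more shared had lower levels. The 12 members with under 50% of coding 50-mers shared had a median of 68.6 RPKM, and the lowest of them was Rps27l at 7.32. For the 23 members from 50% to under 90% the median was 9.54 RPKM. It was 2.95 RPKM for 13 members from 90% to under 100%, and 1.36 RPKM for the 25 members at 100%. Spearman's rho between level and shared coding share was -0.79 over 73 genes, -0.89 over 29 small subunit genes and -0.72 over 44 large subunit genes. Over whole transcripts rho was weaker, at -0.60 over 74 genes, -0.60 over 30 small and -0.56 over 44 large subunit genes. Against the number of sharing loci it was -0.44, and against the number of 50-mers found in no other gene 0.52, both over 74 genes. These are descriptions across genes, which share the same 6 libraries and are not independent replicates. Rpl41 went against the pattern, with 100% shared and 62.3 RPKM. Its coding sequence is only 75 of 544 transcript bases, and 42.0% of its whole-transcript 50-mers were shared. For a highly shared member the value covers only reads that align to 1 place. The plot of level against shared sequence shows each gene.

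**Figure D1:**
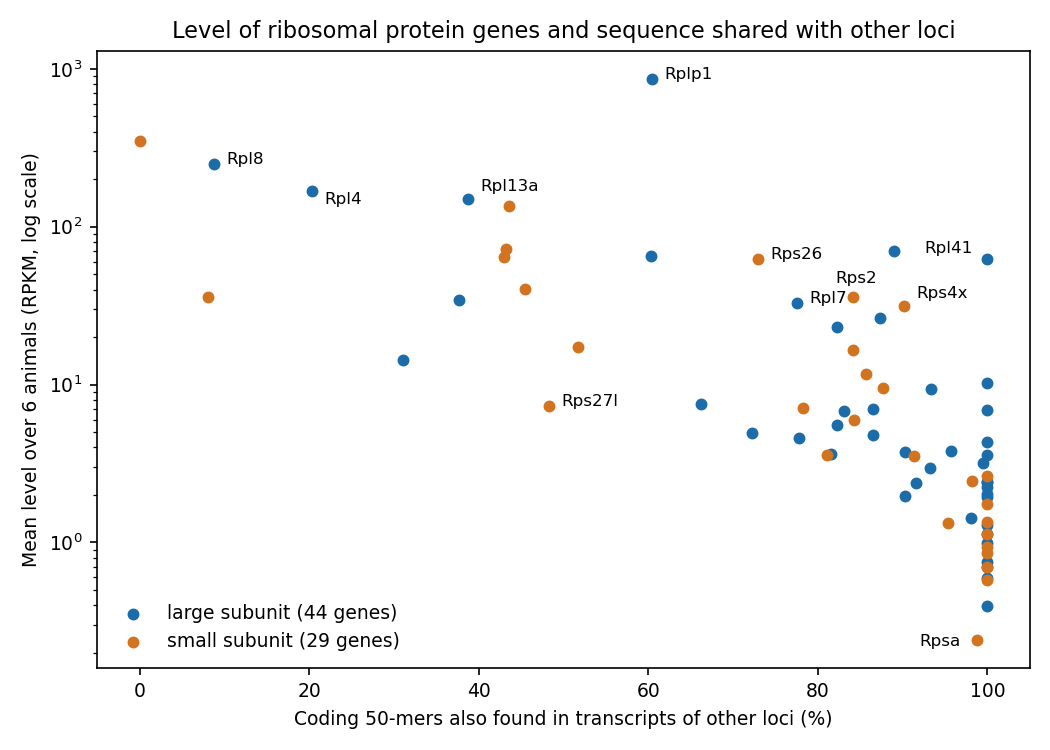
Mean level of each ribosomal protein gene over 6 animals (RPKM, log scale) against the percentage of its coding 50-mers also found in transcripts of other loci, for 44 large subunit genes (blue) and 29 small subunit genes (orange); Rps4l has no coding sequence in the annotation and is not drawn. Rpl8 at 8.73% shared stood at 249 RPKM and Rpsa at 98.8% shared at 0.241 RPKM, while Rplp1 (865 RPKM) and Rpl41 lay above the other genes of similar sharing.

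The stalk proteins of the large subunit recruit the GTPases that drive translation. Rplp1 stood at 304, 670 and 344 CPM in WT and 395, 562 and 317 in KO. The second library was the highest in each group, and the groups overlapped (log2 difference -0.05 ± 0.38, adjusted p = 1.00). Rplp0, which anchors the stalk, stood at 101, 144 and 101 CPM in WT and 93.9, 115 and 90.4 in KO (-0.21 ± 0.16, adjusted p = 0.93). Here, too, WT 2 and KO 2 were highest in their groups, and the estimate was -0.01 without WT 2 and -0.33 without KO 2. Rplp2, the partner of Rplp1, stood at 10.8, 19.5 and 15.4 CPM in WT and 18.3, 18.4 and 11.5 in KO (0.08 ± 0.26, adjusted p = 0.99). Per length, Rplp1 was at 865 RPKM, Rplp0 at 64.8 and Rplp2 at 7.55.

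Rpl8 and Rpl3 contribute to the surroundings of the peptidyl transferase centre. Rpl8 stood at 321, 325 and 323 CPM in WT and 334, 378 and 346 in KO, so every KO library was above every WT library by a small margin (0.13 ± 0.12, adjusted p = 0.95). It had the smallest spread within groups of all members, with an SD of 0.07 in log2 CPM. Rpl3 was at 9.58, 10.4 and 12.9 CPM in WT and 14.8, 11.8 and 13.1 in KO (0.27 ± 0.24, adjusted p = 0.94), with overlap. Rpl4, which lines the exit tunnel for the growing chain, was at 383, 327 and 318 CPM in WT and 374, 311 and 302 in KO. The first library was the highest of each group (-0.06 ± 0.13, adjusted p = 0.99). Rpl13a, also known outside the ribosome in translational silencing, was at 274, 412 and 292 CPM in WT and 290.5, 343 and 284 in KO (-0.09 ± 0.15, adjusted p = 0.98). WT 2 and KO 2 were again the highest.

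Rpl7 had the smallest p of the large subunit genes. It stood at 73.9, 125 and 98.3 CPM in WT and 75.2, 83.0 and 74.99 in KO. WT 1 lay below all 3 KO libraries, so the groups overlapped, and the log2 difference was -0.35 ± 0.16 (unadjusted p = 0.047, adjusted p = 0.80, edgeR). Leaving out WT 2 brought it to -0.14. Rpl34 had the most negative estimate among large subunit genes of 10 CPM or more, at 10.5, 19.3 and 14.8 CPM in WT and 8.33, 14.0 and 11.03 in KO (-0.42 ± 0.27, adjusted p = 0.89). Without WT 2 it was -0.18. Rpl41, one of the smallest known proteins, was at 54.3, 124 and 55.7 CPM in WT and 56.5, 92.6 and 53.8 in KO. The 4 libraries other than WT 2 and KO 2 lay close together, and the estimate was -0.20 ± 0.42 (adjusted p = 0.98).

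Rpl5 and Rpl11 form a particle with 5S ribosomal RNA that binds Mdm2, the regulator of p53. Rpl5 was at 8.93, 7.90 and 9.70 CPM in WT and 11.9, 5.16 and 4.04 in KO (-0.32 ± 0.35, adjusted p = 0.96). With both strands counted together its estimate was -0.04. Leaving out 1 library, it ran from -0.94 (without KO 1) to -0.05 (without KO 3). Of its whole-transcript 50-mers, 45.3% were also found in a gene at an overlapping position. Rpl11 was counted in few reads, with 49, 31 and 30 in WT and 32, 74 and 31 in KO (0.74 ± 0.70, adjusted p = 0.95). Its interval, -0.73 to 2.21, spans changes in both directions. Rpl10, which joins the large subunit late in assembly, was at 7.91, 10.5 and 5.32 CPM in WT and 15.9, 5.19 and 8.45 in KO (0.32 ± 0.37, adjusted p = 0.96). Rpl22, an RNA-binding protein of the large subunit, was at 31.8, 51.4 and 42.9 CPM in WT and 42.7, 41.6 and 39.4 in KO (-0.03 ± 0.18, adjusted p = 1.00). In all 4 genes the groups overlapped.

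Among small subunit genes, Rps26 encodes a protein at the exit of the messenger RNA channel. Rps26 stood at 76.6, 87.2 and 93.1 CPM in WT and at 106, 111 and 103 in KO. Every KO library was above every WT library. The log2 difference was 0.32 ± 0.13 with a 95% interval of 0.05 to 0.60 (unadjusted p = 0.025, adjusted p = 0.74, edgeR), so it did not pass the adjusted threshold. Without any 1 library its estimate stayed between 0.25 and 0.38.

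Rps3 sits at the entry of the channel and was at 146, 199 and 157 CPM in WT and 153, 182 and 129 in KO (-0.11 ± 0.15, adjusted p = 0.97). Rps18 and Rps20 are proteins of the head of the small subunit. Rps18 was at 26.5, 25.8 and 26.4 CPM in WT and 19.7, 23.4 and 18.6 in KO (-0.35 ± 0.19, adjusted p = 0.84), with all KO libraries lower. Rps20 was at 50.5, 53.1 and 50.5 CPM in WT and 49.5, 38.8 and 42.7 in KO (-0.23 ± 0.15, adjusted p = 0.89). Here KO 1 lay just below the WT libraries.

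Rps27l stood at 5.65, 11.01 and 6.63 CPM in WT and 3.59, 3.18 and 5.81 in KO. KO 3 lay above WT 1, so the groups overlapped, and the log2 difference was -0.90 ± 0.36, with an interval of -1.67 to -0.14 (unadjusted p = 0.023, adjusted p = 0.74). Leaving out WT 2 brought it to -0.56. Its parent Rps27 was at 1.19, 3.28 and 1.74 CPM in WT and 2.66, 1.31 and 0.81 in KO (-0.36 ± 0.66, adjusted p = 0.98). Per length, Rps27l was at 7.32 RPKM and Rps27 at 1.76, on coding sequences shared to the different extents given above. Rps4l was at 15.4, 10.9 and 14.3 CPM in WT and 14.4, 22.9 and 16.8 in KO (0.41 ± 0.24, adjusted p = 0.86). Its X-linked relative Rps4x was at 43.3, 59.8 and 51.1 CPM in WT and 54.1, 49.0 and 50.9 in KO (-0.00 ± 0.15, adjusted p = 1.00).

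Some members well known for their roles had wide intervals. Rps6, the substrate of S6 kinase, had 21, 69 and 21 reads in WT and 28, 45 and 24 in KO, and its interval ran from -1.57 to 1.89 on the log2 scale. Rps27a, made as a fusion with ubiquitin, was at 3.31, 8.63 and 4.997 CPM in WT and 6.44, 4.52 and 3.46 in KO (-0.22 ± 0.39, adjusted p = 0.98). Rpsa, also known as the laminin receptor precursor, had 60, 24 and 28 reads in WT and 3, 7 and 9 in KO. The groups did not overlap, at a depth where 3 reads are 0.0965 per M gene reads in KO 1 (adjusted p = 0.86). Only the WT libraries of Rpsa reached the read minimum for membership, so this order is partly tied to how members were chosen. Rps29 had 15, 67 and 28 reads in WT and 0, 13 and 5 in KO (adjusted p = 0.86). The 0 in KO 1 allows up to 0.0965 reads per M gene reads by counting error.

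**Figure D2:**
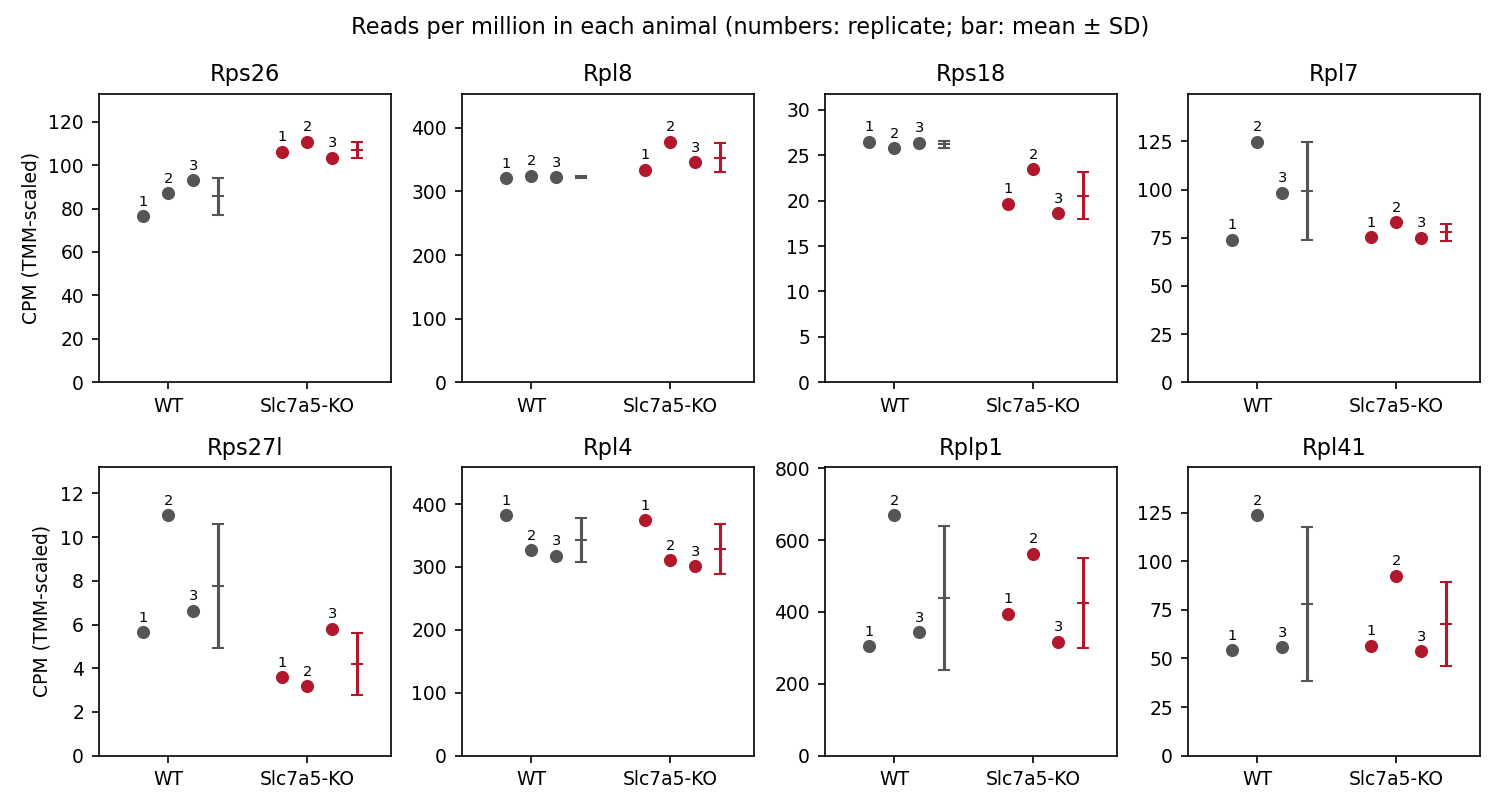
CPM in each animal for 8 ribosomal protein genes, with 3 WT (grey) and 3 KO libraries (red) per gene, replicate numbers above the points and the mean ± SD beside them; every axis starts at 0. Rps26 and Rpl8 lay higher in all KO libraries, Rps18 lower, Rpl7, Rps27l and Rpl4 overlapped, and in Rplp1 and Rpl41 the points marked 2 stood above the rest.

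Between the groups, no ribosomal protein gene passed a false discovery rate of 0.05: 0 of 74 were called, with a smallest adjusted p of 0.74 (edgeR's quasi-likelihood test, Benjamini-Hochberg over all genes tested). Over all 16851 genes tested, 0.0475% were called. At an unadjusted p under 0.05, 3 of 74 members were counted (4.05%) against 6.22% of all genes tested. These were Rps26, higher in KO, and Rps27l and Rpl7, lower in KO. By position, 2 members had all KO libraries above all WT libraries (Rpl8 and Rps26, 2.70%, against 5.93% of all genes). In 3 members all KO libraries were below (Rps18, Rps20 and Rpsa, 4.05%, against 5.54%). Of these, Rpsa reached the read minimum for membership only in WT libraries, so its order is partly tied to how members were chosen. None of these shares was above that of all genes.

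The estimates were centred slightly below 0. Of the members, 28 had a positive and 46 a negative log2 difference, with a median of -0.08 against 0.00 over all genes tested. The median was -0.08 for large and -0.09 for small subunit genes. Over the 38 members at 10 CPM or more it was -0.06, with -0.09 for 21 large and -0.00 for 17 small subunit genes. The sign of the median rested on single libraries. Without WT 2 the median over members was 0.06 and without KO 3 it was 0.00, and without WT 1 it was -0.18. Without WT 2, 52 of the 74 estimates kept their sign.

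The intervals show what sizes of difference these 6 libraries could hold. The 95% interval lay within ±1 on the log2 scale (less than 2-fold either way) for 46 of 74 members. At 10 CPM or more it did so for 37 of 38, with Rpl41 the exception (-1.26 to 0.85). It lay within 1.5-fold for 20 of these 38 members. Under 10 CPM, it lay within 2-fold for 9 of 36. A p that misses the threshold does not show that a gene was the same in both groups, and the plot of estimates gives each interval.

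**Figure D3:**
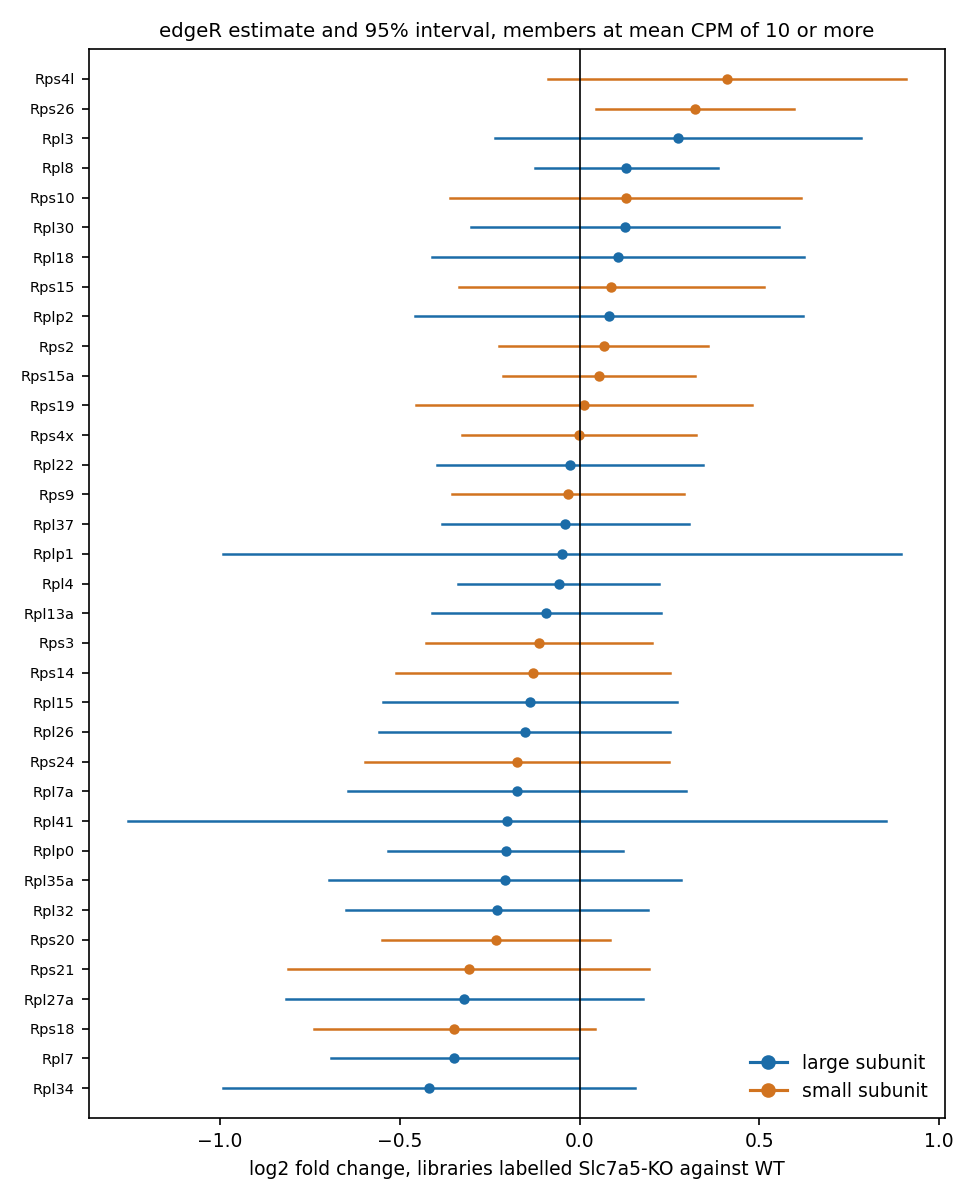
edgeR log2 fold change of KO against WT with its 95% interval, for 35 of the 38 ribosomal protein genes at a mean of 10 CPM or more, coloured by subunit and sorted by estimate. Among those drawn, only the intervals of Rps26 and, by a narrow margin, Rpl7 leave out 0.

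Total ribosomal protein reads did not separate the groups. Their share of gene reads was 0.391% ± 0.0399 (SD, n = 3) in WT and 0.388% ± 0.0332 in KO. Summed CPM was 3971 ± 618 in WT and 3845 ± 392 in KO. Large subunit genes summed to 2275 ± 434 and 2179 ± 259 CPM, and small subunit genes to 1696 ± 199 and 1666 ± 133 CPM. The ratio of large to small subunit reads was 1.32, 1.47 and 1.22 in WT and 1.28, 1.37 and 1.27 in KO, or 1.34 ± 0.13 and 1.30 ± 0.05. Every group difference here was smaller than the SD within a group. These sums are led by a few genes, as the shares of the top members show.

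The animals differed more than the groups did. The mean over members of log2 CPM, after subtracting each gene's mean over the 6 animals, was -0.11, 0.30 and 0.01 in WT 1 to 3 and 0.05, 0.05 and -0.31 in KO 1 to 3. For large subunit genes it was -0.09, 0.24 and 0.02 in WT and 0.13, 0.09 and -0.38 in KO. For small subunit genes it was -0.14, 0.40 and 0.01 in WT and -0.06, -0.01 and -0.21 in KO. WT 2 was the highest and KO 3 the lowest library for both subunits. The large minus small difference was 0.05, -0.17 and 0.00 in WT and 0.18, 0.10 and -0.17 in KO, and both groups spanned 0. Over members at 10 CPM or more, WT 2 stayed highest for both, at 0.30 (large) and 0.15 (small). The lowest library was then WT 1, at -0.22 and -0.14, beside -0.16 and -0.11 for KO 3.

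WT 2 was the highest of the 6 libraries for 33 of 74 members (44.6%), against 21.4% of all genes tested. At 10 CPM or more it was highest for 22 of 38 (57.9%), against 22.7% of all genes at that level. WT 1 was the lowest library for 28 members, more than any other, and its share over all genes is not given here. KO 3 was lowest for 23 members (31.1%, against 20.9%). In 19 members, both WT 2 and KO 2 lay above the other 4 libraries (25.7%, against 7.28% of all genes). At 10 CPM or more these were 16 of 38 (42.1%, against 7.96%). Among the 19 were all 3 stalk genes, Rpl13a, Rpl41, Rps3, Rps9, Rps15, Rps19 and Rps21. Rps9, for one, was at 148, 200.2 and 147 CPM in WT and 149, 196 and 139 in KO. Rpl4 and Rpl8 did not follow this order.

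Some other measures also set WT 2 or KO 2 apart, and others did not. WT 2 was the only WT library that read as female from Xist and Y-linked genes, whereas KO 2 read as male and KO 1 and KO 3 as female. The summed CPM of 10 of 10 Purkinje markers ran from 5848 to 7433 in WT and from 4167 to 6165 in KO, with WT 2 the highest and KO 2 the lowest. The sum of 10 of 10 granule neuron markers ran from 3728 to 5626 in WT and from 3442 to 5333 in KO. WT 2 was again highest, and KO 2 (3442) and KO 3 (3444) were lowest and nearly equal. Blood markers (8 of 10 tested) summed to 112 to 360 CPM in WT and 129 to 235 in KO, with WT 2 the highest. Of the blood markers, Cd3e was at 0 in 5 libraries and S100a8 in 1, and no marker of the other lists was at 0 in any library. Choroid plexus markers (10 of 10) summed to 2596 to 5795 CPM in WT, and in KO to 2415, 48.6 and 4933, with KO 2 lowest. Oligodendrocyte markers (10 of 10) summed to 4329 to 6416 CPM in WT and 4428 to 7568 in KO, with WT 2 the lowest and KO 2 the highest of the 6 libraries. Endothelium markers (10 of 10) summed to 541, 516 and 516 CPM in WT and 455, 497 and 540 in KO, with neither WT 2 nor KO 2 at an end. Interneuron markers (8 of 8) summed to 790 to 1081 CPM in WT and 792 to 973 in KO. Astrocyte and Bergmann glia markers summed to 4150 to 4490 and 3495 to 4050 CPM, and microglia and macrophage markers to 275 to 348 and 351 to 389. With a term for sex in the edgeR fit, 0 members were called and 4 had an unadjusted p under 0.05. Of the 74 estimates, 69 then kept their sign. The part of sex, cell makeup or depth in the order of the libraries was not tested.

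**Figure D4:**
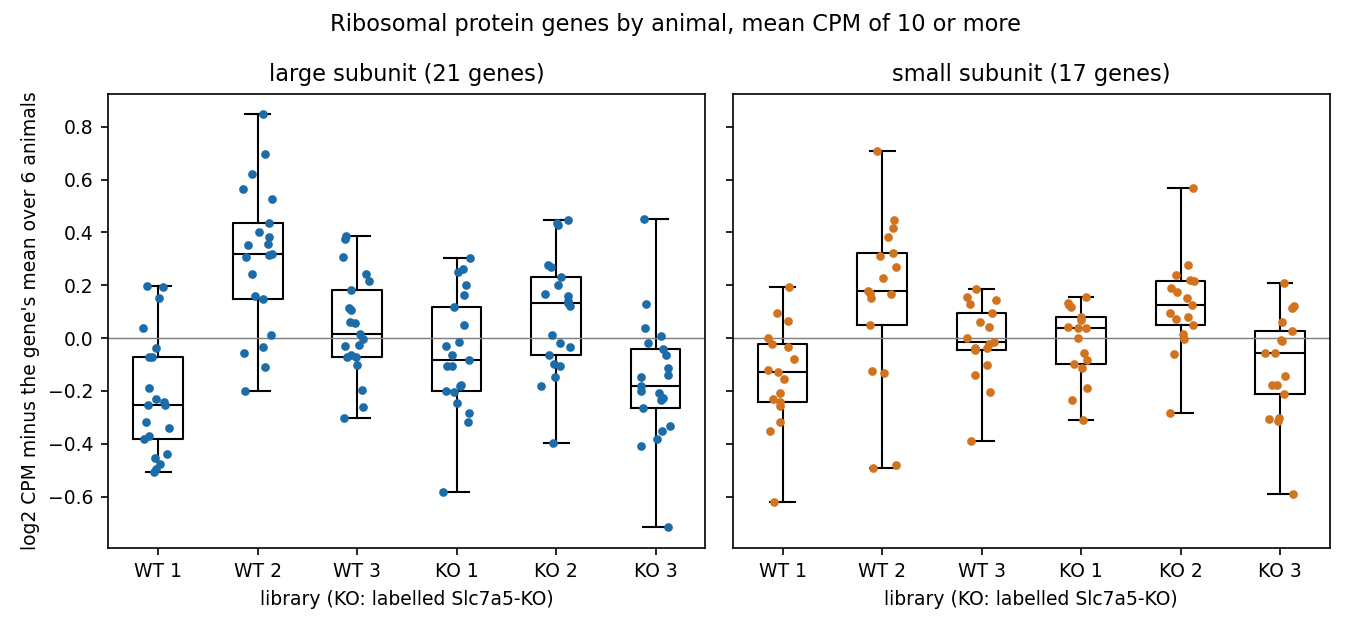
log2 CPM minus the gene's mean over the 6 animals, for 21 large (left) and 17 small subunit genes (right) at 10 CPM or more, 1 point per gene in each library; boxes span the quartiles, the line is the median and whiskers reach the lowest and highest gene. Points of WT 2 and, less far, KO 2 lie mostly above 0 in both panels, while those of WT 1 and KO 3 lie mostly below.

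Spread within groups was wider in members than in other genes at 10 CPM or more, and narrower below that level. The median SD of log2 CPM within groups was 0.38 over members and 0.29 over all genes tested. At 10 CPM or more it was 0.25 against 0.20, and under 10 CPM it was 0.56 against 0.66. Rpl8, Rps15a, Rps2, Rps26 and Rps18 had the smallest spread (0.07 to 0.12). Rpl36, Rpl36a, Rps29 and Rpl13 were among those with the largest (1.35 to 1.67), on few reads. Rpl36a, for example, had 90, 64 and 44 reads in WT and 41, 53 and 1 in KO. By sharing, the median SD was 0.25 for members with under 50% of coding 50-mers shared and 0.58 for those at 100%.

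The 8 matching symbols left out had at most 56 reads in any library. Rps16 had 0, 0 and 56 reads in WT and 3, 5 and 6 in KO. Rpl24 reached 22 reads, Rps23 20, Rpl3l 17, Rpl38 14 and Rpl39l 2, while Rpl10l and Rpl6l had 0 in all 6. Rps16, Rps23, Rpl24 and Rpl38 encode core subunit proteins. In each of them 100% of coding 50-mers were shared with other loci, against 12.5% for Rpl10l and 0% for Rpl39l and Rpl3l. How many of their reads align to several places was not tested. Rpl39l and its parent Rpl39 differed at 23 of 153 coding bases. Rpl39 was at 7.63, 8.88 and 16.0 CPM in WT and 8.88, 8.75 and 9.85 in KO (-0.24 ± 0.30, adjusted p = 0.97). Of the members, 65 had 10 or more reads in all 6 libraries and 43 had 100 or more.

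Genes that work with the ribosomal proteins were read from lists of names. Of 80 ribosome biogenesis factors, 0 were called and 6 had an unadjusted p under 0.05 (5 higher, 1 lower, 7.50%, against 6.22% of all genes tested), with a median of -0.02. The smallest p values were those of the nucleolar factors Noc2l (0.45 ± 0.17) and Nolc1 (0.49 ± 0.18) and of Polr1d, a subunit of RNA polymerases I and III (-0.39 ± 0.15). Of 27 other TOP messenger RNAs tested, 0 were called and 3 had an unadjusted p under 0.05 (2 higher, 1 lower, 11.1%, against 6.22%), with a median of 0.07. They were Snhg12, a host of small nucleolar RNAs (0.74 ± 0.24), and the initiation factor genes Eif2s3x (1.04 ± 0.40) and Eif3e (-0.55 ± 0.20). Sex was uneven between the groups, with WT 2, KO 1 and KO 3 read as female, and its part in the Eif2s3x difference was not tested. Eef2, an abundant TOP messenger RNA, was at 1617, 1584 and 1710 CPM in WT and 1597, 2006 and 1794 in KO (0.14 ± 0.14).

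Of 26 regulators of TOP messenger RNAs and ribosome quality tested, 0 were called by edgeR and 4 had an unadjusted p under 0.05 (3 higher, 1 lower, 15.4%, against 6.22%), with a median of -0.01. Eif4ebp1, the mTORC1 substrate 4E-BP1, was at 6.89, 5.88 and 5.94 CPM in WT and 15.4, 10.1 and 14.0 in KO. The groups did not overlap, and the log2 difference was 1.07 ± 0.27 (adjusted p = 0.29, edgeR), whereas the authors' deposited table gives it an adjusted p of 0.00365. Akt1s1, an mTORC1 component, was at 49.2, 54.2 and 42.3 CPM in WT and 64.9, 86.5 and 60.1 in KO (0.54 ± 0.16, adjusted p = 0.53). Larp1, which binds TOP messenger RNAs, was at 113, 74.1 and 96.4 CPM in WT and 116, 117 and 128 in KO (0.35 ± 0.15, adjusted p = 0.75). Of the ribosomal protein relatives outside the pattern, 8 of 13 were tested, 0 were called or had an unadjusted p under 0.05, and the median was -0.12. Those with the smallest p were Rps19bp1 (-0.69 ± 0.34), Rsl24d1 (0.46 ± 0.31) and Rpl36al (-0.53 ± 0.45). Rack1, a small subunit protein that docks kinases, was at 249, 295 and 252 CPM in WT and 253, 261 and 226 in KO (-0.10 ± 0.13). Fau, whose product is fused to a ubiquitin-like protein, was under 3 CPM in every library.

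In the authors' deposited table, 0 of the 74 members have an adjusted p under 0.05, and the smallest is 0.20. There, 4 members have an unadjusted p under 0.05 (Rps26, Rps27l, Rps18 and Rpl7), and 5 have no adjusted p. Over the 16851 genes tested here, the same table has 1655 with an unadjusted p under 0.05 and 128 with an adjusted p under 0.05.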

How the data were processed

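Cerebellum RNA of 6 mice (3 WT, 3 Slc7a5-KO) was analysed. The deposited count tables hold whole-number reads per gene on 3 strand columns, and the reverse-strand column (94.8% to 95.8% of stranded reads) was used. Per the submitters' processing notes, STAR 2.5.4, DESeq2 1.10.1 and R 3.2.4 were used with GRCm38 (mm10). The sources used here give neither the annotation nor the read length. Reads assigned to no gene or several genes (19.5% to 22.2%) were left out. The authors' deposited comparison holds a mean normalised signal, log2 fold changes, a Wald score and p-values, per the file headers.

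Genes were filtered with filterByExpr (minimum count 10, total 15), scaled by TMM and tested by edgeR 4.0.16 in R 4.3.3 (quasi-likelihood, robust, 2-sided, Benjamini-Hochberg, false discovery rate 0.05). All 74 members passed this filter. CPM carry the TMM scaling, with a prior count of 2 on the log2 scale. The ± gives SE for log2 differences, with intervals from the same fit, and SD elsewhere, with n = 3 per group. RPKM divides mean CPM by GENCODE M21 exon length, on which coordinates and 50-mers also rest. No genome sequence was used, so copies outside the annotation are not counted among shared loci. The fit was tested on simulated data.

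Members and lists were chosen with earlier results of these data known. Named members were, per subunit, the 6 smallest p in each direction, the 5 highest and 5 lowest by RPKM, the 5 largest and 5 smallest SD, the stalk proteins, others listed for their roles, and paralogs with their parent, plus 3 genes per list by p. Rps9, Rps19, Eef2 and the sequence examples Rpl7a, Rpl15 and Rpl28 were added after their values were seen. Some genes that the rule names are not reported here. No 2 libraries agreed within counting noise. Alternatives were other scalings, no filter, both strands, DESeq2 1.42.0, limma-voom 3.58.1, a replicate block, a sex term, leaving out each library and, chosen after seeing the data, members at 10 CPM or more.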

Additional observations from a re-analysis of the deposited data

How the results depend on the processing

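No member was called under any alternative, where 1 to 4 members had an unadjusted p under 0.05 (DESeq2 2, limma-voom 2, the term for sex 4, against 3). Calls over all genes were 71 without the filter, 46 with DESeq2, 6 with limma-voom, 16 with the term for sex and 3 to 20 when 1 library was left out, against 8. Same-numbered libraries correlated at -0.04, -0.06 and -0.03 in their deviations from group means over all genes tested. Deviations within a group of 3 sum to 0, so these values cannot decide whether replicate numbers paired the animals. With the replicate number as a block, 0 members were called higher and 0 lower, 2 had an unadjusted p under 0.05, and 6 genes were called over all. Of all 74 members, 67 kept their sign under the block, 68 with limma-voom and 69 with the term for sex. With plain library size 70 did, and with both strands 73. Only some members were followed singly. Among those, signs turned for Rplp1 (0.00045 under the block, 0.017 with limma-voom), Rpl22 (0.023 with limma-voom, 0.014 with plain library size) and Rpl10 (-0.057 with the term for sex). Rps4x, which lies at 0, turned too (7.7e-05 with both strands, 0.021 with limma-voom, 0.038 with plain library size, 0.010 under the block). The cause was not tested. Leaving out 1 library at a time, the subunit medians ran from -0.17 to 0.01 (large) and from -0.18 to 0.10 (small). Estimates given with their error in the text that changed sign in this way ran from -0.22 to 0.63 (Rpl10), -0.19 to 0.15 (Rpl22), -0.44 to 0.15 (Rpl39), -0.20 to 0.12 (Rpl13a), -0.16 to 0.030 (Rpl4), -0.50 to 0.30 (Rpl41), -0.31 to 0.39 (Rplp1), -0.12 to 0.30 (Rplp2), -0.95 to 0.15 (Rps27), -0.49 to 0.23 (Rps27a), -0.25 to 0.036 (Rps3) and -0.11 to 0.13 (Rps4x). So did Rps21 (-0.52 to 0.038) and Rps6 (-0.18 to 1.08). The 13.4 M reads of KO 3 limit the members under 10 CPM most. Reads that align to several places are absent, so values of shared members describe their countable bases.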
